A study of Mus musculus with 11 samples.

Results

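Lysosomes digest what cells take up and what they retire, and the genes described here encode the proton pump that acidifies them, the cathepsins that digest protein in them and the main proteins of their membrane. The genes were chosen by symbol: all symbols of the gene table that begin with Atp6v0 or Atp6v1, all single-letter cathepsins (Cts followed by 1 letter), and Atp6ap1, Atp6ap2, Lamp1 and Lamp2. They number 45 of 21684 genes, and the rule uses no measured value. The 45 are 9 genes of the membrane sector of the pump (V0), 14 of its cytosolic sector (V1), 2 accessory proteins, 18 cathepsins and 2 lysosome-associated membrane proteins. One of the 14, Atp6v1fnb, is a neighbouring gene of Atp6v1f and not a subunit.

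RNA was sequenced from NIH/3T3 cells, a mouse embryonic fibroblast line, in 4 genotypes, all cultured without serum for the last 24 h, a state in which these cells grow primary cilia. The unmodified line (WT) has 2 libraries, and the knockouts (KO) of Xap5, Nono and Sox5 have 3 libraries each. The labels name no clones and no separate cultures, so a difference between genotypes and a difference between the lines that carry them cannot be told apart, and the p-values measure only the spread between these libraries, which may be technical. Protein, enzyme activity and lysosomal pH were not measured, and in bulk RNA fewer cells with a transcript and less of it per cell cannot be told apart.

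The libraries hold 30205878 to 43498383 counts. Fam50a, the gene of Xap5, lay at 7.49 to 7.91 CPM (counts scaled to the library's size, corrected with edgeR's TMM factors) in the Xap5 KO against 62.9 to 64.8 in WT, and Nono at 27.6 to 34.0 CPM in the Nono KO against 351 to 357. Sox5 lay at 12.6 to 13.9 CPM in the Sox5 KO against 45.9 to 49.7 in WT, and it was as low in the Xap5 KO (11.9 to 15) and lower in the Nono KO (7.01 to 8.75). All 8 fibroblast markers were expressed, with a summed level of 23532 to 23541 CPM in WT, 18154 to 19436 in the Xap5 KO, 42930 to 46810 in the Nono KO and 19027 to 19540 in the Sox5 KO. Fn1 was the most abundant of them (13898 and 14023 CPM in WT), and single markers went opposite ways. In the Sox5 KO Fn1 (log2 fold change -1.15) and Pdgfra (-1.03) fell, and S100a4 (1.38) and Thy1 (1.61) rose.

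The vacuolar ATPase is a rotary pump: its V1 sector splits ATP on the cytosolic face, and its V0 sector carries protons through the membrane. The acid it makes lets cathepsins mature and work, and LAMP proteins coat the inner face of the lysosomal membrane. Many of these genes are known targets of the MiT/TFE transcription factors, which bind a CACGTG-centred site in their promoters and leave the cytosol for the nucleus when cells are starved.

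Of the 45 genes, 29 passed edgeR's filter on low counts and were tested together with all 13332 genes that passed. A gene was called changed where its p-value, adjusted by the Benjamini-Hochberg method over those 13332 genes, lay under 0.05. The 16 untested genes are silent or nearly so in these cells. Atp6v1e2, Atp6v1g3, Ctse, Ctsg, Ctsh, Ctsj, Ctsm, Ctsq and Ctsr had 0 counts in all 11 libraries. Atp6v0d2, Atp6v1b1, Atp6v1c2, Atp6v1fnb, Ctsc, Ctss and Ctsw had at most 10 counts in any library. Several of these are known from other tissues: Atp6v1b1 and Atp6v1g3 from kidney, Atp6v0d2 from osteoclasts, Ctss, Ctsg and Ctsw from blood cells, and Ctsj, Ctsm, Ctsq and Ctsr from placenta.

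Against WT, the lysosomal genes were mostly higher in the Sox5 KO and mostly lower in the Nono KO, and mixed in the Xap5 KO. Of the 29, 17 rose and 5 fell in the Sox5 KO, where 30.6% and 30.3% of all tested genes were called higher and lower (60.9% in either direction). Only 3 rose and 16 fell in the Nono KO, beside 23.5% higher and 25.1% lower among all tested genes (48.6%). For the Xap5 KO, 7 rose and 12 fell, beside 23.2% higher and 22.3% lower (45.5%). The median log2 fold change of the 29 was 0.40 in the Sox5 KO, -0.21 in the Nono KO and -0.11 in the Xap5 KO, and over all tested genes it was -0.01, -0.02 and 0.0. When each chromosome's median was fitted as an offset per library, 22 rose and 2 fell in the Sox5 KO, and with transcript length and GC content as the offset 16 rose and 8 fell. The shares of all tested genes given above are from the fit without offsets, so these counts have no like share beside them. These 3 comparisons share the 2 WT libraries.

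The direct comparisons between knockouts do not use the WT libraries as a group. In the Nono KO against the Sox5 KO 4 genes were higher and 21 lower, beside 30.9% and 32.6% of all tested genes (63.5% in either direction), with a median of -0.77. In the Xap5 KO against the Sox5 KO 2 were higher and 18 lower, beside 31.1% and 30.4% (61.6%), with a median of -0.48. In the Xap5 KO against the Nono KO 12 were higher and 6 lower, beside 27.1% and 25.9% (53%), with a median of 0.08. With the chromosome offset 7 were higher and 6 lower (14 and 3 when scaled by library totals), likewise without a like share of all tested genes.

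Gene by gene, 10 of the 29 rose in the Sox5 KO and fell in the Nono KO: Atp6ap1, Atp6ap2, Atp6v0d1, Atp6v1b2, Atp6v1c1, Atp6v1f, Atp6v1h, Ctsb, Lamp1 and Lamp2. Of all tested genes 4.41% had that pattern. Of the 10, Atp6v0d1, Atp6v1c1, Atp6v1f, Ctsb and Lamp1 also fell in the Xap5 KO, beside 1.08% of all tested genes. Ctso had the opposite pattern, higher in the Nono KO and lower in the Sox5 KO, beside 4.34% of all tested genes. Ctsd alone rose in all 3 knockouts and Atp6v1g1 alone fell in all 3, beside 8.33% and 7.61% of all tested genes. Atp6v1g2, a neuronal form of the G subunit at 1.86 to 3.83 CPM, was called in none. Across both offsets, library totals and every fit that left out 1 library, Atp6ap2, Atp6v1h and Ctsb alone of the 10 kept both calls. Among those that also fell in the Xap5 KO, Ctsb alone kept that call as well. Ctsd kept its calls in all 3 knockouts, while Ctso and Atp6v1g1 did not keep theirs in the Sox5 KO. The shares of all tested genes were not limited in this way.

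**Figure D1:**
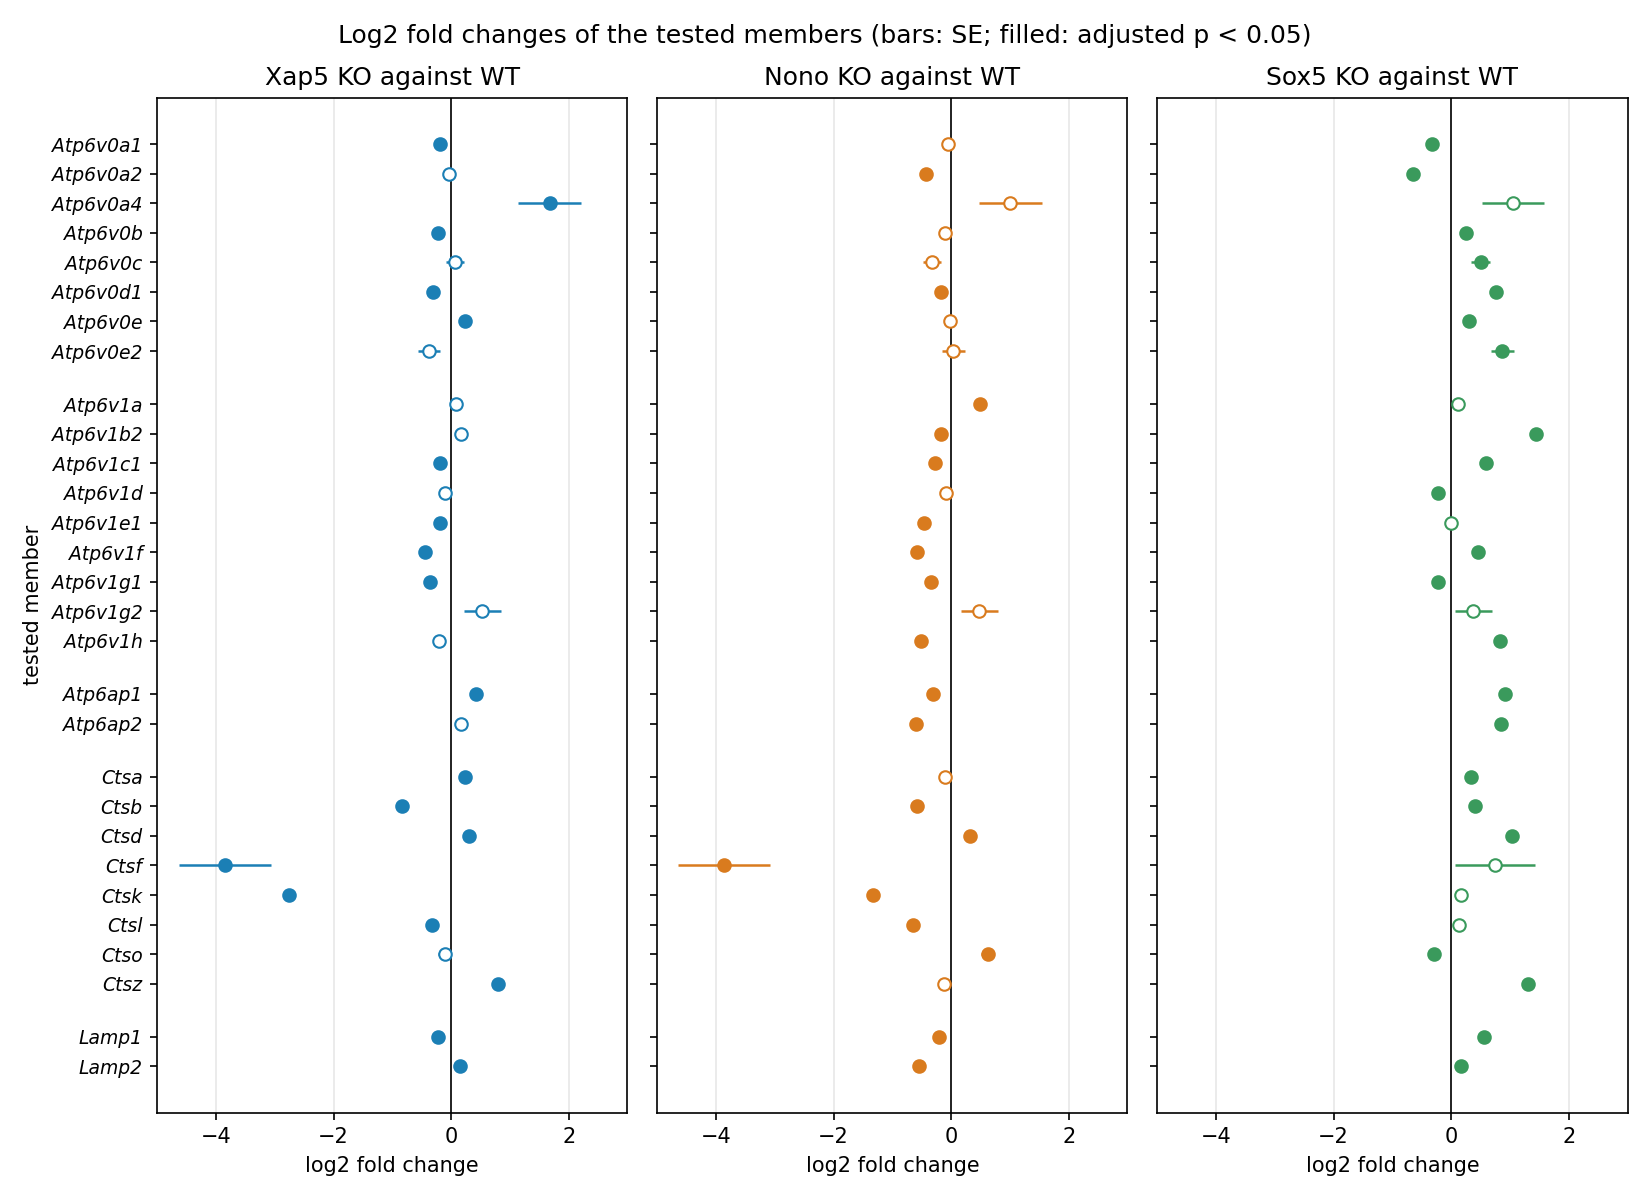
Log2 fold change of the 29 tested genes in each knockout against WT, in 3 panels, with V0, V1, accessory, cathepsin and LAMP genes in blocks from top to bottom; bars are the SE, and filled points have an edgeR adjusted p under 0.05. In the Sox5 KO panel 17 filled points lie right of 0, in the Nono KO panel 16 lie left of it, and Ctsf (-3.85 and -3.86) and Ctsk (-2.75 and -1.33) lie far to the left in the Xap5 and Nono KO.

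In the V1 sector, 4 of the 9 tested subunits rose in the Sox5 KO and 2 fell, 1 rose and 6 fell in the Nono KO, and none rose and 4 fell in the Xap5 KO. In either direction 66.7%, 77.8% and 44.4% were called in the Sox5, Nono and Xap5 KO. Among all tested genes these shares were 60.9%, 48.6% and 45.5%. Atp6v1b2 (ENSMUSG00000006273), the B subunit that forms the catalytic head together with A, moved most. It lay at 207 and 208 CPM in the WT libraries, at 211, 230 and 259 in the Xap5 KO, at 185, 175 and 190 in the Nono KO, and at 559, 589 and 539 in the Sox5 KO. The Sox5 KO libraries stood far above all others, and the Nono KO libraries just below WT. Its level in the Sox5 KO was 271% ± 12.3 of WT (SD, n = 3; log2 fold change 1.44, SE 0.0751, edgeR adjusted p = 7.76e-13). The fall in the Nono KO was small (log2 fold change -0.18, edgeR adjusted p = 0.0416). That call was lost without Nono KO library 1 (-0.19) or 2 (-0.15), WT library 1 (-0.18) or 2 (-0.17) or Xap5 KO library 2 (-0.17), and the value in the Xap5 KO (0.17) was called without Xap5 KO library 1 (0.22) and after an offset for the median of its chromosome (0.53). That offset brought the value in the Nono KO to -0.07, and it was not called with DESeq2 or RLE factors either (-0.17 each).

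Its partner Atp6v1a, the A subunit that splits ATP, went another way. Atp6v1a, which is described because it pairs with Atp6v1b2 and was singled out after its values were seen, had 201 and 199 CPM in WT, 198, 221 and 219 in the Xap5 KO, 278, 272 and 292 in the Nono KO and 213, 222 and 213 in the Sox5 KO. It rose in the Nono KO (log2 fold change 0.49, SE 0.0611, edgeR adjusted p = 9.59e-07), and the value in the Sox5 KO was 0.11 (edgeR adjusted p = 0.123, 95% interval -0.01 to 0.23), and it was called with the chromosome offset (0.25) and with the length and GC offset (0.20). The difference between the Nono and Sox5 KO (0.38) was -0.01 after an offset for the median of its chromosome. In the assembled pump A and B subunits are present in equal number. Within each library, the Atp6v1b2 counts per Atp6v1a count were 1.04 ± 0.0157 in WT (SD, n = 2), 1.09 ± 0.0762 in the Xap5 KO, 0.652 ± 0.0112 in the Nono KO and 2.60 ± 0.0638 in the Sox5 KO (SD, n = 3 each). This ratio does not depend on how libraries are scaled, and the Nono KO and Sox5 KO libraries lay on opposite sides of the others without overlap. It is not corrected for differences between chromosomes 8 (Atp6v1b2) and 16 (Atp6v1a). Median log2 fold changes of these chromosomes were -0.13 and 0.27 in the Nono KO and 0.24 and -0.13 in the Sox5 KO. In the Xap5 KO they were -0.35 and 0.09. The part of these shifts in the ratio was not tested.

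Atp6v1h (ENSMUSG00000033793), the H subunit that couples V1 to V0, had 165 and 159 CPM in WT, 123, 141 and 159 in the Xap5 KO, 107, 109 and 125 in the Nono KO and 302, 286 and 277 in the Sox5 KO. The Sox5 KO libraries were the highest and the Nono KO libraries among the lowest, while the Xap5 KO libraries reached up to the WT level. It rose in the Sox5 KO (log2 fold change 0.83, SE 0.0895, edgeR adjusted p = 2.48e-07) and fell in the Nono KO (-0.51, SE 0.0871, edgeR adjusted p = 9.68e-05). The value in the Xap5 KO was -0.20 (edgeR adjusted p = 0.075), and it was called without Xap5 KO library 3 (-0.30) or Nono KO library 3 (-0.20), and with the length and GC offset (-0.29).

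Atp6v1f (ENSMUSG00000004285), the small F subunit of the central stalk, had 82.4 and 77.0 CPM in WT, 54.6, 55.6 and 64.5 in the Xap5 KO, 57.5, 48.2 and 54.8 in the Nono KO and 106, 119 and 104 in the Sox5 KO. The Xap5 and Nono KO libraries overlapped each other below WT, and the Sox5 KO libraries were above it. It fell in the Xap5 KO (log2 fold change -0.45, SE 0.0868, edgeR adjusted p = 0.000216) and in the Nono KO (-0.58, SE 0.0868, edgeR adjusted p = 1.17e-05). Its rise in the Sox5 KO (0.46, SE 0.088, edgeR adjusted p = 0.000112) turned to -0.21 when transcript length and GC content were fitted as an offset, so its direction there depends on that choice.

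Atp6v1g1 (ENSMUSG00000039105), the common form of the G subunit in the peripheral stalk, had 302 and 289 CPM in WT, 211, 217 and 262 in the Xap5 KO, 240, 221 and 233 in the Nono KO and 255, 254 and 247 in the Sox5 KO. No knockout library reached WT. The log2 fold change was -0.36 in the Xap5 KO (edgeR adjusted p = 0.000391), -0.35 in the Nono KO (edgeR adjusted p = 0.000426) and -0.23 in the Sox5 KO (edgeR adjusted p = 0.0107). The call in the Sox5 KO was lost without WT library 1 (-0.21), and the value there was 0.01 after an offset for the median of its chromosome.

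The remaining V1 subunits did not reach a 2-fold change. Atp6v1c1, the C subunit that is released when the pump comes apart, rose in the Sox5 KO to 152% ± 2.55 of WT (SD, n = 3) and fell in the Xap5 KO (log2 fold change -0.19) and the Nono KO (-0.27). Both falls were lost without WT library 1 (-0.13 and -0.20), and that in the Xap5 KO also without Xap5 KO library 1 (-0.16). Atp6v1e1, a peripheral stalk subunit, fell in the Nono KO to 72.5% ± 2.65 of WT (SD, n = 3). Its fall in the Xap5 KO (-0.19) was lost without WT library 1 (-0.19), WT library 2 (-0.21) or Xap5 KO library 1 (-0.16). Atp6v1d, the central stalk D subunit, fell slightly in the Sox5 KO (-0.23). That call was lost without WT library 2 (-0.20) or Sox5 KO library 3 (-0.20), and the direction turned to 0.54 after the chromosome offset, since the median of its chromosome 12 was -0.75 in the Sox5 KO.

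**Figure D2:**
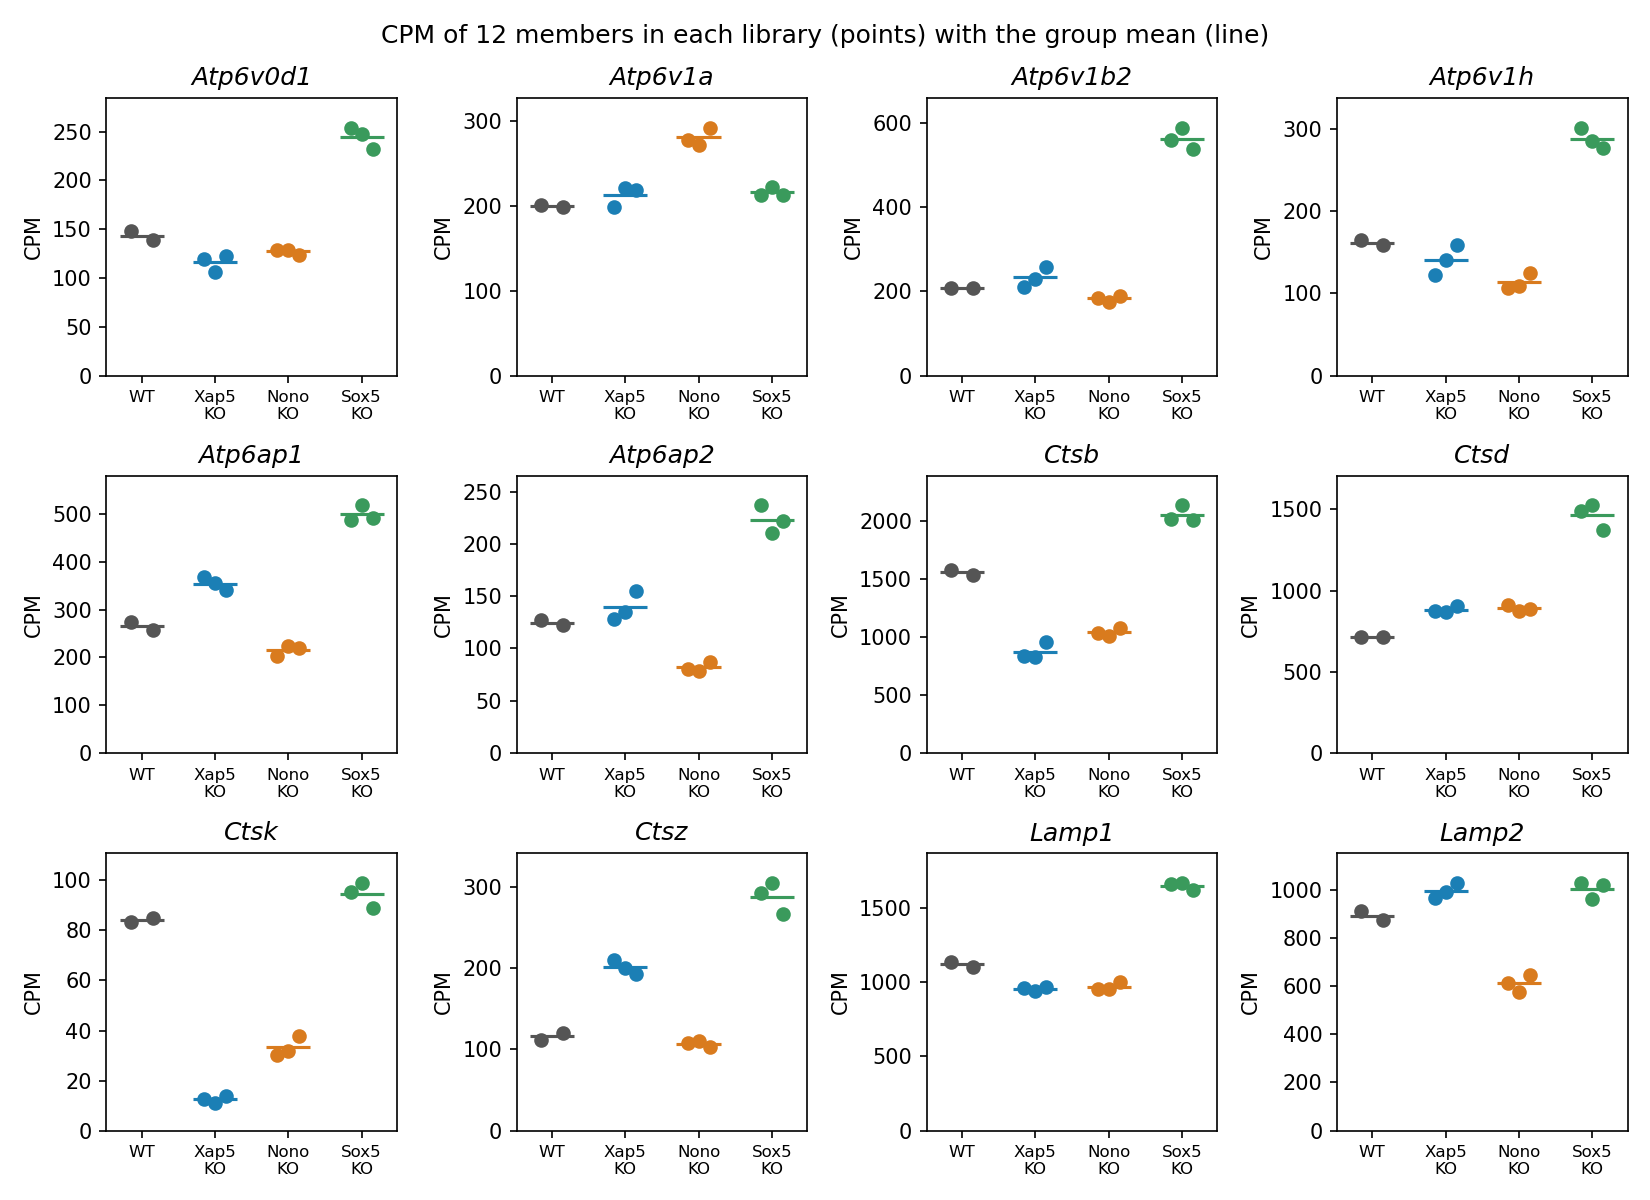
CPM (vertical axes, starting at 0) of 12 genes in each of the 11 libraries, shown as points with a line at the group mean. The 3 Sox5 KO libraries stand above all others for Atp6v1b2, Atp6v1h, Atp6v0d1, Ctsd and Lamp1, and Ctsk is lowest in the Xap5 KO, at 11.2 to 13.7 CPM.

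In the V0 sector, 5 of the 8 tested genes rose in the Sox5 KO and 2 fell, none rose and 2 fell in the Nono KO, and 2 rose and 3 fell in the Xap5 KO. In either direction 87.5%, 25.0% and 62.5% were called in the Sox5, Nono and Xap5 KO, beside 60.9%, 48.6% and 45.5% of all tested genes. Atp6v0d1 (ENSMUSG00000013160), the d subunit that joins the rotor to the central stalk, had 148 and 139 CPM in WT, 119, 106 and 123 in the Xap5 KO, 129, 129 and 124 in the Nono KO and 254, 248 and 232 in the Sox5 KO. The Xap5 and Nono KO libraries lay below WT and those of the Sox5 KO well above. It rose in the Sox5 KO to 171% ± 7.88 of WT (SD, n = 3; log2 fold change 0.77, SE 0.0676, edgeR adjusted p = 2.84e-09). It fell in the Xap5 KO (-0.31, edgeR adjusted p = 0.00071), where the value was 0.06 after the chromosome offset. The small fall in the Nono KO (-0.17, edgeR adjusted p = 0.0397) was lost without any 1 of the WT or Nono KO libraries (-0.20 to -0.12).

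The a subunits, which carry the proton channel, did not follow Atp6v0d1. Atp6v0a1 fell in the Sox5 KO (log2 fold change -0.33, edgeR adjusted p = 3.9e-05) and the Xap5 KO (-0.19, edgeR adjusted p = 0.00951). Atp6v0a2, a form found in the Golgi and endosomes, fell in the Sox5 KO (-0.65, edgeR adjusted p = 1.12e-08) and the Nono KO (-0.42, edgeR adjusted p = 9.22e-06). Within libraries, the Atp6v0d1 counts per Atp6v0a1 count were 1.14 ± 0.0465 in WT (SD, n = 2) and 2.44 ± 0.0632 in the Sox5 KO (SD, n = 3), against 1.05 ± 0.0881 and 1.05 ± 0.0324 in the Xap5 and Nono KO. Tcirg1, the a3 subunit of lysosomes and osteoclasts whose symbol the rule does not match, had 70.3 and 76.1 CPM in WT, 85.3, 83.8 and 91.4 in the Xap5 KO, 40.0, 46.9 and 45.6 in the Nono KO and 103, 99.6 and 92.7 in the Sox5 KO. It was called in all 3 comparisons, at 0.25, -0.73 and 0.43, higher in the Xap5 and Sox5 KO and lower in the Nono KO. The Tcirg1 call in the Xap5 KO was lost without WT library 1 (0.18) or Xap5 KO library 3 (0.20), and with the chromosome offset it was called neither there (0.17) nor in the Sox5 KO (0.03).

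Atp6v0a4 (ENSMUSG00000038600), the a4 subunit known from kidney, was barely expressed: 31 and 19 counts in WT, 76, 60 and 91 in the Xap5 KO, 26, 76 and 41 in the Nono KO and 33, 45 and 37 in the Sox5 KO. All Xap5 KO libraries were above WT, and the Nono KO libraries overlapped it. The rise in the Xap5 KO (log2 fold change 1.68, SE 0.534, edgeR adjusted p = 0.0142) was lost without WT library 2 (1.31, edgeR adjusted p = 0.127). The value in the Nono KO (1.01) was called without Nono KO library 1 (1.32). Its exons overlap those of 2 other genes, 1 of them in the same orientation, and reads of these cannot be told apart.

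Atp6v0e2 (ENSMUSG00000039347), the less expressed of the e subunit genes, had 5.81 and 5.47 CPM in WT, 4.27, 5.09 and 3.68 in the Xap5 KO, 5.55, 6.26 and 5.55 in the Nono KO and 9.80, 11.8 and 9.41 in the Sox5 KO. The Sox5 KO libraries stood above all others (log2 fold change 0.87, SE 0.192, edgeR adjusted p = 0.000502). Its homologue Atp6v0e rose in the Sox5 KO (0.31) and in the Xap5 KO (0.24), the latter not without WT library 1 (0.21).

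The proteolipids of the rotor ring gave weaker calls. Atp6v0b (the c'' subunit) rose in the Sox5 KO (log2 fold change 0.26, edgeR adjusted p = 0.00357), which turned to -0.29 under the length and GC offset. Its fall in the Xap5 KO (-0.22) was lost without WT library 1 (-0.23) or 2 (-0.23). Atp6v0c (the c subunit) rose in the Sox5 KO (0.50, edgeR adjusted p = 0.0215), but not without WT library 1 (0.41), Sox5 KO library 1 (0.43) or Sox5 KO library 2 (0.49). It lay at 128, 179 and 127 CPM in the Nono KO, and without library 2, the high one, its value of -0.32 became -0.51 and was called. The annotation names 2 pseudogenes of Atp6v0c, which the counting could mix with it.

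Both accessory proteins were higher in the Sox5 KO and lower in the Nono KO. Atp6ap1 (ENSMUSG00000019087), which helps assemble V0, had 273 and 258 CPM in WT, 367, 355 and 341 in the Xap5 KO, 202, 223 and 219 in the Nono KO and 488, 518 and 492 in the Sox5 KO. The 4 groups did not overlap, in the order Nono KO, WT, Xap5 KO, Sox5 KO. The log2 fold changes were -0.30 (SE 0.0602, edgeR adjusted p = 0.000254), 0.42 (SE 0.0611, edgeR adjusted p = 9.18e-06) and 0.91 (SE 0.062, edgeR adjusted p = 5.22e-11) in the Nono, Xap5 and Sox5 KO. Atp6ap2 (ENSMUSG00000031007), also known as the prorenin receptor, had 127 and 122 CPM in WT, 128, 135 and 155 in the Xap5 KO, 80.4, 78.1 and 87.0 in the Nono KO and 237, 210 and 222 in the Sox5 KO. The Nono KO libraries were the lowest (-0.60, SE 0.0752, edgeR adjusted p = 9.08e-07) and the Sox5 KO libraries the highest (0.84, SE 0.077, edgeR adjusted p = 5.53e-09). Its value of 0.17 in the Xap5 KO (edgeR adjusted p = 0.0799) was called without library 1 (0.21).

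Atp6ap1, Atp6ap2 and Lamp2 lie on the X chromosome, whose 438 tested genes had a median log2 fold change of 0.36 in the Xap5 KO, -0.33 in the Nono KO and 0.14 in the Sox5 KO. With the chromosome offset Atp6ap1 stood at 0.08 in the Nono KO and was no longer called there or in the Xap5 KO, and its rise in the Sox5 KO was kept.

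Both LAMP genes were called higher in the Sox5 KO and lower in the Nono KO, and they differed in sign in the Xap5 KO alone. Lamp1 (ENSMUSG00000031447) had 1137 and 1103 CPM in WT, 956, 939 and 968 in the Xap5 KO, 954, 950 and 1000 in the Nono KO and 1658, 1667 and 1615 in the Sox5 KO. The Xap5 and Nono KO libraries overlapped each other below WT, and all Sox5 KO libraries were above it. The log2 fold change was 0.56 in the Sox5 KO (SE 0.0556, edgeR adjusted p = 2.12e-08), -0.23 in the Xap5 KO (edgeR adjusted p = 0.00158) and -0.21 in the Nono KO (edgeR adjusted p = 0.00308). The fall in the Nono KO was lost without WT library 1 (-0.18), and that in the Xap5 KO was 0.14 after the chromosome offset.

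Lamp2 (ENSMUSG00000016534), which also serves chaperone-mediated autophagy, had 914 and 876 CPM in WT, 968, 992 and 1032 in the Xap5 KO, 616, 575 and 649 in the Nono KO and 1030, 966 and 1024 in the Sox5 KO. Its Nono KO libraries stood apart at 68.5% ± 4.13 of WT (SD, n = 3; log2 fold change -0.55, SE 0.0607, edgeR adjusted p = 1.87e-07). The higher values in the Xap5 KO (0.16, edgeR adjusted p = 0.0436) and the Sox5 KO (0.17, edgeR adjusted p = 0.0219) were small. The call in the Xap5 KO was lost in 7 of the 11 fits that left out 1 library: any WT library, any Xap5 KO library, Nono KO library 1 or Sox5 KO library 3 (0.12 to 0.18). The one in the Sox5 KO was lost without either WT library or without Sox5 KO library 1 or 3 (0.14 to 0.19). Within libraries the Lamp1 counts per Lamp2 count were 1.25 ± 0.0101 in WT (SD, n = 2), 0.957 ± 0.0261 in the Xap5 KO, 1.58 ± 0.062 in the Nono KO and 1.64 ± 0.0778 in the Sox5 KO (SD, n = 3 each).

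Per kilobase of the longest annotated transcript, Lamp1 was the most abundant of the 29 genes in WT, at a mean of 502 CPM per kb, followed by Ctsd (336), Ctsb (328), Ctsl (263), Atp6v1g1 (260) and Lamp2 (248). The core pump subunits spread from 260 for Atp6v1g1 to 19.1 for Atp6v1c1. Lamp1 (739) and Ctsd (687) led in the Sox5 KO. These levels compare genes and take the longest transcript as the length of each, which the files do not give. The order depends on that choice: before division by length, Ctsl (1621 CPM) and Ctsb (1554) stood above Lamp1 (1120) in WT.

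Of the 8 tested cathepsins, 4 rose and 1 fell in the Sox5 KO, 2 rose and 4 fell in the Nono KO, and 3 rose and 4 fell in the Xap5 KO. Beside this, 30.6% of all tested genes were called higher and 30.3% lower in the Sox5 KO (60.9% in either direction). For the Nono KO these shares were 23.5% and 25.1% (48.6%), and for the Xap5 KO 23.2% and 22.3% (45.5%). Ctsa, Ctsb, Ctsd and Ctsl made up nearly all cathepsin counts, 95% ± 0.215 in WT (SD, n = 2) and 93.5% to 95% on average in the knockouts. Cathepsins as a whole took 0.488% ± 0.00655 of all counts in WT (SD, n = 2), 0.393% ± 0.0168 in the Xap5 KO, 0.339% ± 0.00339 in the Nono KO and 0.619% ± 0.0192 in the Sox5 KO (SD, n = 3 each). V0 and V1 subunits together took 0.224%, 0.200%, 0.177% and 0.274%, in the same order of groups. These shares of library totals leave out the TMM factors and are not on the CPM scale used for single genes. The factors were 1.067 and 1.063 in WT, 1.005 to 1.045 in the Xap5 KO, 0.9441 to 0.9552 in the Nono KO and 0.977 to 0.9867 in the Sox5 KO.

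Ctsk (ENSMUSG00000028111), the collagen-degrading cathepsin K best known from osteoclasts and also made by fibroblasts, had the largest change among the cathepsins with high counts. It lay at 83.2 and 84.9 CPM in WT, at 12.7, 11.2 and 13.7 in the Xap5 KO, at 30.4, 32.0 and 37.9 in the Nono KO and at 95.2, 99.1 and 88.9 in the Sox5 KO. The 4 groups did not overlap, with the Xap5 KO far below and the Nono KO between it and WT. It fell to 14.9% ± 1.44 of WT in the Xap5 KO (SD, n = 3; log2 fold change -2.75, SE 0.0976, edgeR adjusted p = 2.94e-15) and to 39.7% ± 4.67 in the Nono KO (SD, n = 3; -1.33, SE 0.0934, edgeR adjusted p = 1.5e-10). The Xap5 KO was also below the Nono KO (-1.42, SE 0.0907, edgeR adjusted p = 3.95e-11). The value in the Sox5 KO was 0.17 (edgeR adjusted p = 0.132), and it was called at 0.39 under the chromosome offset and at -0.29 under the length and GC offset.

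Since cathepsin K is a marker of osteoclasts, markers of macrophages and osteoclasts were read beside it. The 10 markers summed to 5.98 to 7.10 CPM in WT, 7.31 to 9.40 in the Xap5 KO, 12.1 to 15 in the Nono KO and 10.1 to 10.5 in the Sox5 KO, and 5 of them passed the filter. Tyrobp and Ocstamp had 0 counts in all libraries, and Adgre1 had at most 0.148 CPM. Ptprc, the pan-leukocyte marker CD45, was at 0.124 and 0.0908 CPM in WT and at 6.00, 7.31 and 6.68 in the Nono KO. It had at most 0.412 CPM in the Xap5 KO and 0 counts in the Sox5 KO. Ptprc and Lyz2 were called higher in the Nono KO (log2 fold changes 5.92 and 3.82). In the Sox5 KO Lyz2 (3.31) and Cd14 (0.58) were called higher and Ptprc lower (-5.05). None was called in the Xap5 KO, and Csf1r and Aif1 were called in no knockout. Cd14 was at 4.84 and 5.40 CPM in WT. Whether such cells are present and have a part in the Ctsk values was not tested.

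Ctsb (ENSMUSG00000021939), an abundant cathepsin that cuts both within proteins and at their ends, had 1573 and 1536 CPM in WT, 837, 826 and 953 in the Xap5 KO, 1031, 1008 and 1077 in the Nono KO and 2013, 2132 and 2004 in the Sox5 KO. The groups did not overlap. It fell to 56.1% ± 4.52 of WT in the Xap5 KO (SD, n = 3; log2 fold change -0.83, SE 0.0645, edgeR adjusted p = 1.01e-09), fell in the Nono KO (-0.58, SE 0.0646, edgeR adjusted p = 1.87e-07) and rose in the Sox5 KO (0.40, SE 0.0659, edgeR adjusted p = 2.11e-05).

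Ctsl, the other abundant cysteine cathepsin, whose values were singled out after they were seen, had 1642 and 1599 CPM in WT, 1239, 1309 and 1310 in the Xap5 KO, 1082, 1078 and 933 in the Nono KO and 1750, 1842 and 1777 in the Sox5 KO. It fell in the Nono KO (log2 fold change -0.65, edgeR adjusted p = 3.58e-08) and in the Xap5 KO (-0.33, edgeR adjusted p = 0.000254). Its value in the Sox5 KO was 0.14 (edgeR adjusted p = 0.0655), and it was called without Nono KO library 3 (0.14), with DESeq2 (0.14), with the 2 groups alone (0.13), with the chromosome offset (0.19) and with the length and GC offset (0.54).

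Ctsd (ENSMUSG00000007891), the aspartic protease cathepsin D, had 716 and 714 CPM in WT, 877, 865 and 905 in the Xap5 KO, 914, 876 and 886 in the Nono KO and 1489, 1525 and 1373 in the Sox5 KO. All knockout libraries were above WT, and those of the Sox5 KO stood apart from the rest. The log2 fold change was 0.30 in the Xap5 KO (SE 0.0587, edgeR adjusted p = 0.000237), 0.32 in the Nono KO (SE 0.0587, edgeR adjusted p = 0.000119) and 1.03 in the Sox5 KO (SE 0.0601, edgeR adjusted p = 4.21e-12). Its share of all cathepsin counts was 15.6% in WT and 23.1%, 25.0% and 23.2% in the Xap5, Nono and Sox5 KO, while that of Ctsl was 35.4%, 33.6%, 28.9% and 28.5% in that order of groups. The Ctsd counts per Ctsl count were therefore 0.441 ± 0.00739 in WT (SD, n = 2) and 0.687 ± 0.0236, 0.869 ± 0.0718 and 0.817 ± 0.0401 in the knockouts (SD, n = 3 each). An exon of Ctsd overlaps another annotated gene on the same strand.

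**Figure D3:**
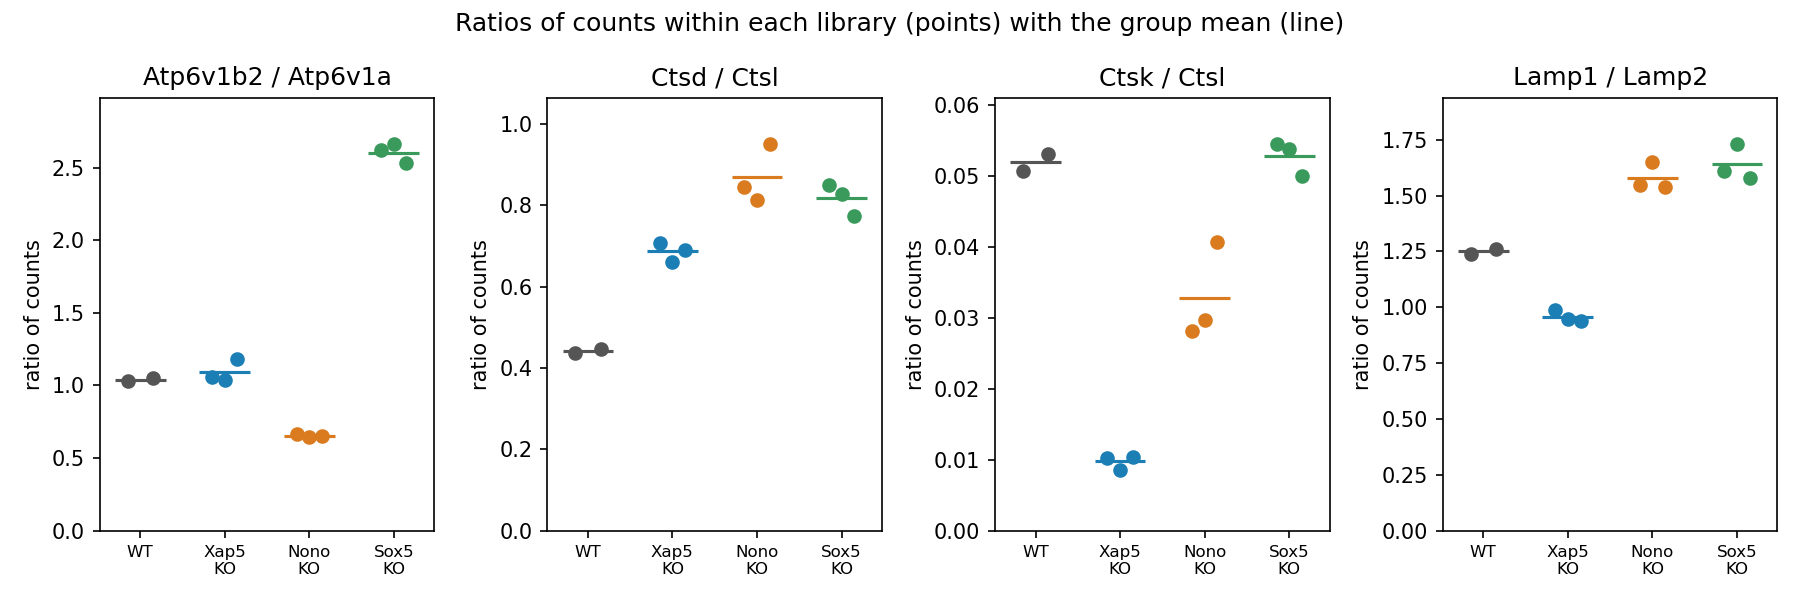
Ratio of the counts of 4 gene pairs within each library (points) with the group mean (line), vertical axes starting at 0. Atp6v1b2 per Atp6v1a is lowest in the Nono KO and highest in the Sox5 KO, Ctsd per Ctsl is above WT in all 3 knockouts, Ctsk per Ctsl is lowest in the Xap5 KO, and Lamp1 per Lamp2 is below WT in the Xap5 KO alone.

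Ctsz (ENSMUSG00000016256), a carboxypeptidase also called cathepsin X, had 112 and 120 CPM in WT, 210, 200 and 193 in the Xap5 KO, 108, 110 and 103 in the Nono KO and 292, 305 and 266 in the Sox5 KO. The Xap5 KO libraries lay between WT and the Sox5 KO, and the Nono KO libraries lay just below WT. It rose in the Xap5 KO to 173% ± 7.34 of WT (SD, n = 3; log2 fold change 0.79, SE 0.0668, edgeR adjusted p = 4.03e-09) and in the Sox5 KO to 248% ± 17.2 (SD, n = 3; 1.31, SE 0.068, edgeR adjusted p = 7.02e-13). The value in the Nono KO was -0.12 (edgeR adjusted p = 0.144, 95% interval -0.25 to 0.01). Ctsz and Ctsk, both cysteine cathepsins, moved in opposite directions in the Xap5 KO.

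Ctsf (ENSMUSG00000083282), a papain-like cathepsin, was rare: 75 and 103 counts in WT, 0, 11 and 6 in the Xap5 KO, 4, 13 and 0 in the Nono KO and 116, 112 and 99 in the Sox5 KO. The Xap5 and Nono KO libraries were near the limit of detection, and 1 library of each had no count. It was called lower in the Xap5 KO (edgeR adjusted p = 0.000652) and the Nono KO (edgeR adjusted p = 0.000564), with mean levels of 6.71% ± 6.40 and 6.59% ± 7.72 of WT (SD, n = 3 each). The log2 value in the Sox5 KO was 0.74 (SE 0.683, edgeR adjusted p = 0.366).

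Ctsa, a serine carboxypeptidase that also shields other lysosomal enzymes, rose in the Sox5 KO (log2 fold change 0.33, edgeR adjusted p = 0.000366). Its rise in the Xap5 KO (0.23) was lost without WT library 1 (0.22), WT library 2 (0.23) or Xap5 KO library 1 (0.18). Ctso, a little studied cysteine cathepsin at 24.9 to 25.0 CPM in WT, rose in the Nono KO to 33.9, 38.3 and 43.2 CPM (0.62, SE 0.107, edgeR adjusted p = 5.7e-05). Its fall in the Sox5 KO (-0.29) was lost without WT library 1 (-0.30), WT library 2 (-0.30) or Sox5 KO library 2 (-0.24). Exons of 12 of the 29 genes overlap another gene, 9 of them (among them Ctsa, Ctsb, Ctsz, Lamp1 and Atp6v1h) on the opposite strand only, and whether counting used strand is not given in the sources used here.

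Several calls depended on the chromosome a gene lies on. With the chromosome offset, 11 of the 19 calls in the Xap5 KO were kept, and Atp6ap1, Atp6v0d1, Atp6v0e, Atp6v1e1, Atp6v1f, Ctsa, Lamp1 and Lamp2 were not. For the Nono KO 15 of 19 were kept, without Atp6ap1, Atp6v0d1, Atp6v1b2 and Lamp1. For the Sox5 KO 18 of 22 were kept, without Atp6v1d, Atp6v1g1, Ctso and Lamp2. Atp6v0d1, Atp6v1b2 and Lamp1 share chromosome 8, whose median was -0.35 in the Xap5 KO, -0.13 in the Nono KO and 0.24 in the Sox5 KO.

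**Figure D4:**
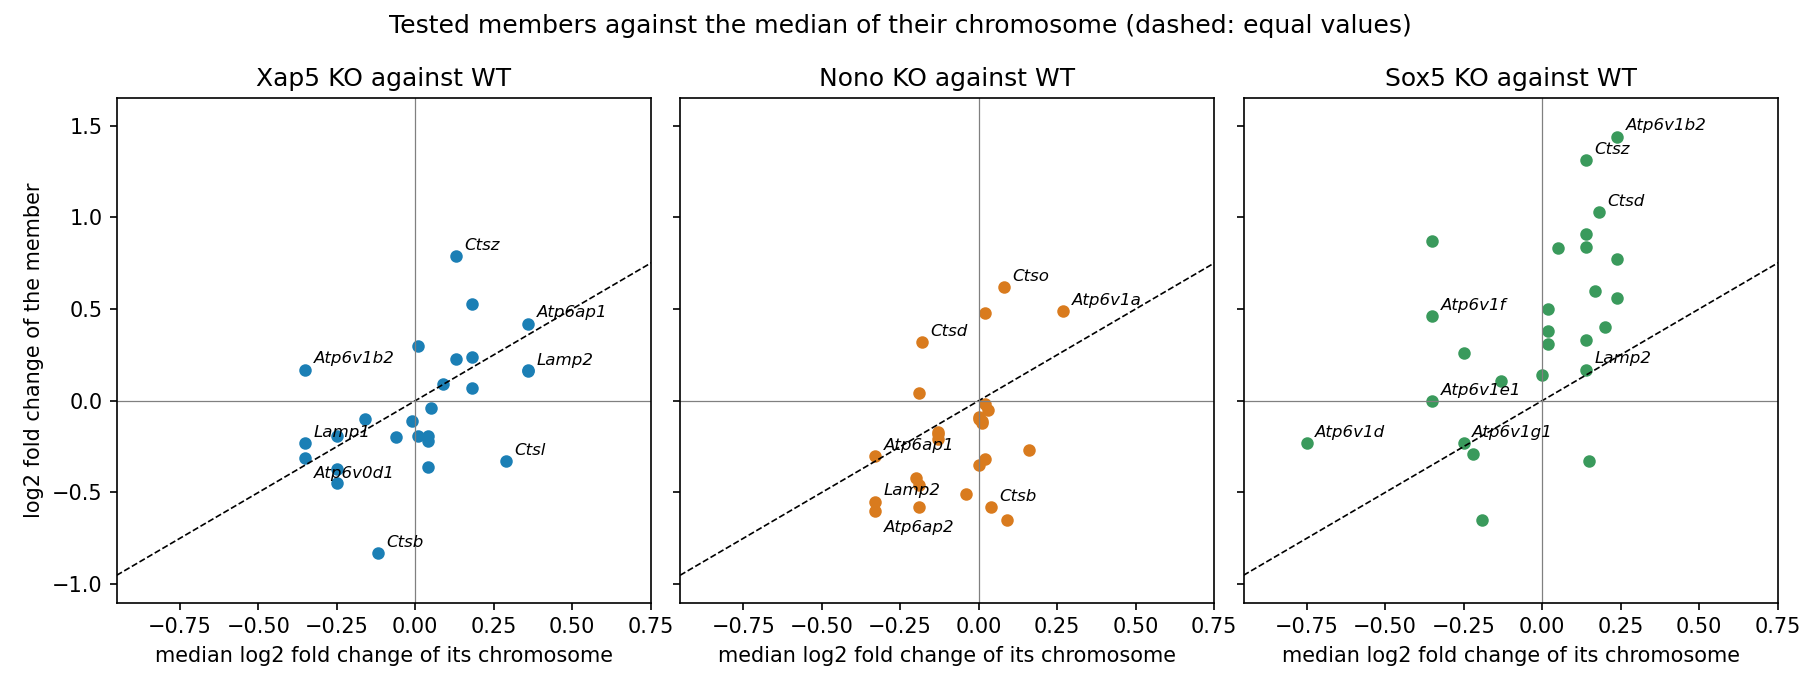
Log2 fold change of each gene drawn (vertical) against the median log2 fold change of all tested genes on its chromosome (horizontal). Each knockout against WT has 1 panel, and a dashed line marks equal values. Of the tested genes, Atp6v0a4, Ctsf and Ctsk are left out of all panels. Atp6ap1 in the Nono KO and Lamp1 and Atp6v0d1 in the Xap5 KO lie near the line, while Atp6v1b2, Ctsz and Ctsd in the Sox5 KO lie far above it.

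Calls that held with the chromosome offset, the length and GC offset, scaling by library totals and every fit that left out 1 library numbered 8 in the Xap5 KO, 14 in the Nono KO and 15 in the Sox5 KO. The share of all tested genes that held in the same way was not computed. These counts therefore do not show whether lysosomal calls are more stable than others. The 8 were Ctsz and Ctsd, higher, and Ctsb, Ctsk, Ctsl, Ctsf, Atp6v0a1 and Atp6v1g1, lower. The 14 were the falls of Ctsb, Ctsk, Ctsl, Ctsf, Lamp2, Atp6ap2, Atp6v0a2, Atp6v1e1, Atp6v1f, Atp6v1g1 and Atp6v1h, and the rises of Atp6v1a, Ctsd and Ctso. The 15 were the rises of Atp6ap1, Atp6ap2, Atp6v0d1, Atp6v0e, Atp6v0e2, Atp6v1b2, Atp6v1c1, Atp6v1h, Ctsa, Ctsb, Ctsd, Ctsz and Lamp1, and the falls of Atp6v0a1 and Atp6v0a2.

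Since the MiT/TFE factors bind CACGTG, the promoters were searched for it. RefSeq's table (build GRCm38.p6) gives a promoter of 300 bases, 250 before and 50 after the start, for 35 of the 45 genes and 23 of the 29 tested. CACGTG reads the same on both strands, and 33.3% of the promoters of the tested genes described here held it (9 of 27), beside 9.44% of the promoters of all tested genes (1252 of 13261) and 7.15% of all promoters (2349 of 32851). The longer TCACGTGA, which contains it and also reads the same on both strands, was in 18.5% (5 of 27), 1.78% and 0.974%. The CLEAR element itself, which adds a G before and a C after these 8 bases, was in 0 of 27, and in 0.641% and 0.326%. A match describes the sequence and does not show binding. The 9 genes with CACGTG were Atp6v0b, Atp6v0d1, Atp6v0e, Atp6v1a, Ctsa, Ctsd, Ctsf, Ctsl and Lamp1.

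The 250 bases before the start are shown in lower case, 5′ to 3′ along the gene, with CACGTG in capitals. Lamp1 (chr8:13158911-13159160, plus strand) and Ctsd (chr7:142387828-142388077, minus strand) rose in the Sox5 KO and have more than 1 match upstream. The first bases lie at -61, -45, -28 and -15 from the start for Lamp1 and at -245 and -98 for Ctsd. Atp6ap1 (log2 fold change 0.91), Atp6v0e2 (0.87) and Atp6ap2 (0.84) rose more there than Lamp1 (0.56) and have none, and Atp6v0d1 (0.77) has 1 across the start. Atp6v0a2, Atp6v1b2, Atp6v1c1, Atp6v1g1, Atp6v1h and Ctsb have no listed promoter and were not searched. Ctsz (chr2:174439040-174439289, minus strand) and Ctsk (chr3:95498960-95499209, plus strand) have none, and are shown because they had the largest rise and the largest fall among the cathepsins with high counts.
Lamp1: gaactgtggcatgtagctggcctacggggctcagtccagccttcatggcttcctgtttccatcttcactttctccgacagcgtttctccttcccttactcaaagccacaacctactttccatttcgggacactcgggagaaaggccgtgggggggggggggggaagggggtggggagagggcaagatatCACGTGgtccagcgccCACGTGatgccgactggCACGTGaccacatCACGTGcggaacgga
Ctsd: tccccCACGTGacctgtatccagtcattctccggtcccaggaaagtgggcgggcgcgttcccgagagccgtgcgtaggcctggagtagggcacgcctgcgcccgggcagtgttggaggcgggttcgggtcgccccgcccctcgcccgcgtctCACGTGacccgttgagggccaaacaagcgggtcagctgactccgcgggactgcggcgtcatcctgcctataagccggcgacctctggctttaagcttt
Ctsz: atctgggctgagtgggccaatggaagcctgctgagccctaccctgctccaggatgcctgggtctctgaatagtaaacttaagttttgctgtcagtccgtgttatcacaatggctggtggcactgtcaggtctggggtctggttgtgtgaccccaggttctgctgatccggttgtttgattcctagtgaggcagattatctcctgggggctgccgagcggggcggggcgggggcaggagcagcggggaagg
Ctsk: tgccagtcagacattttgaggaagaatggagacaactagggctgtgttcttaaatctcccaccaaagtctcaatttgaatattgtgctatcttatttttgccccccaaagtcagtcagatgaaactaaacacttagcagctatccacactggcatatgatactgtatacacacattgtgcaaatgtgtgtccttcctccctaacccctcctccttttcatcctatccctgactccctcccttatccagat
In the Sox5 KO, 6 of the 9 genes with CACGTG rose and none fell (median log2 fold change 0.33), and of the 14 genes with a listed promoter that lacks it 7 rose and 3 fell (median 0.42). Of the 9, 2 rose and 4 fell in the Nono KO, and of the 14, 1 rose and 6 fell. Of the 9, 3 rose and 5 fell in the Xap5 KO, and of the 14, 4 rose and 4 fell. Of all tested genes, 30.6% were called higher and 30.3% lower in the Sox5 KO. These shares were 23.5% and 25.1% in the Nono KO, and 23.2% and 22.3% in the Xap5 KO. With the length and GC offset, Atp6v0b of the 9 and Atp6v1f of the 14 turned from higher to lower in the Sox5 KO. The difference between genes with and without the motif was not tested.

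The MiT/TFE genes themselves changed unequally. Tfeb had 4.24 and 4.79 CPM in WT, 11.6, 12.4 and 14.2 in the Xap5 KO, 6.51, 7.28 and 7.37 in the Nono KO and 13.8, 10.2 and 12.9 in the Sox5 KO, and all knockout libraries were above WT. The log2 fold changes of Tfeb were 1.5, 0.64 and 1.44 (edgeR adjusted p = 4.39e-07, 0.00382 and 3.31e-07) in the Xap5, Nono and Sox5 KO. Mitf, another member of the family, fell in all 3 (-0.34, -0.73 and -0.71), with -0.08 and no call in the Xap5 KO under the chromosome offset. Tfe3, an X-linked gene, rose in the Xap5 KO (0.29) and the Sox5 KO (0.16) and fell in the Nono KO (-0.44), and with the chromosome offset its values were -0.06, 0.04 and -0.06 and none was called. The Tfe3 call in the Sox5 KO was also lost without WT library 1 (0.16) or 2 (0.15) or Sox5 KO library 2 (0.16) or 3 (0.16), and with library totals (0.05). Tfec had no counts in WT, 25.7 to 29.9 CPM in the Xap5 KO, 11.2 to 12.2 in the Nono KO and at most 0.136 in the Sox5 KO. The part of these factors in the lysosomal genes' values was not tested.

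Proteins that hold cathepsins in check or process them were read next. Of 8 tested, 5 rose and 2 fell in the Xap5 KO and in the Nono KO, and 5 rose and 1 fell in the Sox5 KO. Beside these counts, 23.2% of all tested genes were called higher and 22.3% lower in the Xap5 KO. The like shares were 23.5% and 25.1% in the Nono KO, and 30.6% and 30.3% in the Sox5 KO. Cst3, the secreted inhibitor cystatin C, had 386 and 400 CPM in WT, 541, 559 and 583 in the Xap5 KO, 467, 430 and 472 in the Nono KO and 813, 833 and 716 in the Sox5 KO. It was called higher in all 3 knockouts (log2 fold changes 0.51, 0.22 and 1.00), and the Sox5 KO libraries were the highest. The Cst3 call in the Nono KO was lost without WT library 1 (0.19), with library totals (0.05) and with the length and GC offset (0.03). Lgmn, the protease legumain that cleaves several cathepsins into their mature chains, rose in the Sox5 KO (0.46, edgeR adjusted p = 3e-05), with values of 0.11 and 0.08 in the Xap5 and Nono KO (edgeR adjusted p = 0.252 and 0.431). The Lgmn value in the Sox5 KO was 0.17 and no longer called with the length and GC offset. Cst6, cystatin M, had 8.53 and 8.49 CPM in WT and 0, 2 and 2 counts in the Xap5 KO, so that WT was at least 112-fold higher than a floor of 3 counts per library. Cst6 fell by 0.95 on the log2 scale in the Nono KO. Serpinb9 rose in all 3 knockouts (1.13, 0.82 and 0.90).

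Other genes of the lysosome were counted in the same way, beside 30.6% higher and 30.3% lower among all tested genes in the Sox5 KO, 23.5% and 25.1% in the Nono KO, and 23.2% and 22.3% in the Xap5 KO. Of 37 other tested hydrolases, 19 rose and 11 fell in the Sox5 KO, 6 rose and 16 fell in the Nono KO, and 8 rose and 15 fell in the Xap5 KO, with medians of 0.17, -0.14 and -0.04. Lipa, the acid lipase, rose in all 3 (log2 fold changes 0.93, 1.00 and 0.57 in the Sox5, Nono and Xap5 KO). Gla, the alpha-galactosidase on the X chromosome, fell in the Nono KO from 175 to 179 CPM in WT to 47.5 to 51.7 (-1.83, edgeR adjusted p = 1.63e-15).

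Of 22 other tested membrane proteins of the lysosome, 3 rose and 10 fell in the Sox5 KO. In the Nono KO 2 rose and 11 fell, and in the Xap5 KO 1 rose and 11 fell. Cln3, mutated in a childhood storage disease, fell in all 3 (log2 fold changes -1.47 in the Xap5 KO, -0.44 in the Nono KO and -1.29 in the Sox5 KO). The Cln3 call in the Nono KO was lost without WT library 1 (-0.41), WT library 2 (-0.46) or Nono KO library 1 (-0.42), and with the chromosome offset (-0.26). Npc1, the cholesterol exporter, fell in the Nono KO (-1.17), and Tmem192 rose in the Sox5 KO (0.95).

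Of 15 further tested genes for parts or assembly of the pump, 7 rose and 6 fell in the Sox5 KO, and 1 rose and 6 fell in the Nono KO. In the Xap5 KO 4 rose and 4 fell, a share near that of all tested genes (23.2% and 22.3%). Tmem199, an assembly factor, rose in the Sox5 KO (log2 fold change 1.14), as did Rnasek (1.34, edgeR adjusted p = 0.0267). The Rnasek call was lost without WT library 1 (1.34), WT library 2 (1.33) or Sox5 KO library 1 (1.14), with the replicate block (1.38) and with the length and GC offset (0.76). Tbc1d24 fell in all 3 knockouts (-0.65, -0.53 and -1.19 in the Xap5, Nono and Sox5 KO). Of 18 tested sorting genes, 9 rose and 7 fell in the Sox5 KO, 2 rose and 8 fell in the Nono KO, and 3 rose and 9 fell in the Xap5 KO. Igf2r, the receptor that carries mannose-6-phosphate tagged hydrolases to lysosomes, fell in all 3 (-0.68, -0.22 and -0.45), with 0.16 in the Sox5 KO under the length and GC offset. The Igf2r call in the Nono KO was lost without WT library 1 (-0.22) or 2 (-0.20) or Nono KO library 1 (-0.18) or 2 (-0.19). Sort1, another sorting receptor, rose in the Nono KO (0.92) and fell in the Xap5 KO (-0.49) and the Sox5 KO (-0.72, and -0.27 and not called with the length and GC offset), and Ap3m1, an adaptor subunit, rose in all 3 (0.27, 0.79 and 0.78). The Ap3m1 call in the Xap5 KO was lost without any 1 of the WT or Xap5 KO libraries (0.22 to 0.29). Of 11 tested genes of the Ragulator, Rag and folliculin group, which link the lysosome to mTORC1, 4 rose and 3 fell in the Sox5 KO, 1 rose and 4 fell in the Nono KO, and none rose and 6 fell in the Xap5 KO. Rragd fell in the Xap5 KO (-1.76) and the Nono KO (-2.17), Lamtor1 rose in the Sox5 KO (0.86), and Fnip2 fell in all 3 (-0.54, -0.64 and -1.05).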

How the data were processed

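RNA-seq gene counts of 11 libraries were deposited in 1 table, as whole numbers treated here as estimated counts, and 0 columns lay outside the samples. Per the submitters' processing notes, HISAT2 2.1.0, StringTie 1.3.3b and DESeq2 1.12.4 were used with GRCm39, with no role given; annotation and strand handling are not given in the sources used here. In R 4.3.3, edgeR 4.0.16 was fitted to all 11 libraries with 1 mean per group and TMM factors, after a filter (minimum count 10, minimum total count 15) that kept 13332 genes; quasi-likelihood tests were adjusted by Benjamini-Hochberg, with a threshold of 0.05. The biological coefficient of variation was 10.6%. The code of the fit was run on simulated data in which few genes changed, in the Sox5 KO group alone and with the same dispersion for all genes. A first run missed the bar set for recovered genes, and the bar was then replaced by bars on bias, sign and false calls. The simulation does not cover scaling where as many genes change as here. Chromosomes, lengths and GC came from a GENCODE annotation that matched 21540 of the 21684 IDs.

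The genes and lists were chosen with earlier results of these data known. Values by library are given for genes called and at least 2-fold changed in any comparison, those called with 1 sign in all 3 knockouts, and Lamp1, Lamp2, Atp6ap1 and Atp6ap2; of other lists, the 3 called genes with the largest change are named, except 1 that is not reported here. Alternatives were RLE factors, library totals, no filter, DESeq2 1.42.0, 2 groups only, a replicate block, offsets for chromosome or for length and GC, and leaving out each library.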

Additional observations from a re-analysis of the deposited data

How the results depend on the processing

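The 6 counts of called genes stayed within 1.5 times their value under all 19 alternatives. Library totals shifted the median of all genes to -0.18 in the Nono KO and -0.12 in the Sox5 KO, with 26 genes called in the Nono KO (3 higher, 23 lower) and 20 in the Sox5 KO (15 higher, 5 lower). With the chromosome offset 13, 15 and 24 were called in the Xap5, Nono and Sox5 KO against WT. The share of all tested genes called under each alternative is not given here. Leaving out 1 library gave 13 to 20, 15 to 19 and 18 to 23 calls against WT, 16 to 18 for Xap5 against Nono KO, 18 to 20 for Xap5 against Sox5 KO and 25 to 26 for Nono against Sox5 KO. Any pairing of libraries by replicate number was weak. Deviations of the 15 same-numbered pairs had r from -0.023 to 0.046, and 10 of 11 libraries correlated best with a library of their own number. With the replicate block 19, 18 and 23 genes were called against WT. Directions that reversed with the chromosome offset, for causes not tested, were in the Xap5 KO Atp6v0d1 (0.06), Atp6v1e1 (0.08), Lamp1 (0.14), Lamp2 (-0.20) and Tfe3 (-0.06), in the Nono KO Atp6ap1 (0.08), and in the Sox5 KO Atp6v1e1 (0.35), Atp6v1d (0.54) and Atp6v1g1 (0.01). Between knockouts they were Atp6ap1 (-0.02), Lamp1 (0.24) and Lamp2 (-0.04) for Xap5 against Nono, Atp6v1d (-0.49) for Xap5 against Sox5, and Atp6v1d (-0.64) and Atp6v1a (-0.01) for Nono against Sox5. With the length and GC offset they were, in the Sox5 KO, Atp6v0b (-0.29), Atp6v1f (-0.21), Ctsk (-0.29), Igf2r (0.16) and Npc1 (0.32), and between knockouts Atp6v1g1 (0.25) for Xap5 against Sox5, and Atp6v0b (0.02) and Atp6v1g1 (0.23) for Nono against Sox5. Ctsf, Atp6v0a4 and the 16 untested genes are limited by depth.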
